A study of Mus musculus with 6 samples.

Results

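The genes described here carry the symbols of 6 families of the ubiquitin system: the RING finger genes (Rnf), the tripartite motif genes (Trim), the F-box genes Fbxo, Fbxl and Fbxw, and the ubiquitin-conjugating enzymes (Ube2). They were found by symbol alone, with a number following the stem for all but Ube2, and Rnf180 was left out. Of 18193 genes with a probe set of their own, 235 were members: 77 Rnf, 58 Trim, 32 Fbxo, 17 Fbxl, 18 Fbxw and 33 Ube2 genes. The rule takes names as they stand, so it also holds the pseudogene Ube2d-ps, the antisense transcript Fbxl12os and Ube2cbp, named as a binding partner of a conjugating enzyme.

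Transgenic lenses (3 arrays) were compared with wild-type lenses (3 arrays), all whole lenses taken from Balb/c mice aged 2 days. The labels do not name the transgene, its promoter or the founder line, and 12 lenses were collected per genotype, with no word on how the replicates shared them. Whether replicates are separate animals is not stated: p-values therefore cover the spread among these 6 samples, which may be technical. Each array gave log2 values with a median of 5.29 to 5.37, and the number of arrays, 3 a group, limits the precision.

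Ubiquitin is passed from an activating enzyme to a conjugating enzyme and then, with the help of a ligase, to the protein that is to be marked. RING finger and tripartite motif proteins mostly hold the loaded conjugating enzyme beside the substrate. F-box proteins are the exchangeable substrate receptors of the SCF ligases, which are built on the cullin Cul1. In the lens, fiber cells degrade their organelles and many of their proteins as they mature, and both the ubiquitin-proteasome system and the lysosome are active in these cells.

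The forkhead gene Foxe3 separated the genotypes most widely, with log2 values of 13.33, 13.42 and 13.39 in transgenic lenses, against 8.54, 8.86 and 8.82 in wild-type lenses. Lens genes were high on all arrays: the mean of 16 lens markers other than Foxe3 was 13.54 to 13.64 in transgenic and 13.76 to 13.78 in wild-type lenses. With Foxe3, 6 of 17 differences were above 0 and their median was -0.013. Besides Foxe3, the beaded filament gene Bfsp1 passed, with a difference of -1.66. Transgenic replicate 3 stood apart. All 17 skin markers and 14 of 18 skeletal muscle markers were higher on it than on the other 5 arrays. Of 17 neural retina markers 16 had a difference below 0, with a median of -0.38, and the marker mean was 7.18 to 7.80 in transgenic and 7.52 to 8.09 in wild-type lenses. Among these retina markers 1 passed, downward, and at an unadjusted p under 0.05 limma gave 0 higher and 6 lower. Of the 10 vessel and 11 blood markers, the endothelial receptor gene Tek rose by 0.49 and the others did not pass. In RNA of whole tissue, fewer cells of a type and less RNA per cell cannot be told apart.

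Few members passed the test for a difference between the genotypes. In transgenic lenses 6 members fell (Rnf113a1, Ube2o, Rnf123, Trim23, Ube2j1 and Rnf24) and 5 rose (Fbxo41, Ube2h, Fbxl20, Trim28 and Trim35), and the other 224 did not pass the test. The 11 calls had log2 differences of 0.40 to 1.03 in absolute size. The test was limma's moderated linear model, with p-values adjusted over all 18193 genes by the Benjamini-Hochberg method and called under 0.05. Of all genes tested 4.55% passed, 1.93% upward and 2.61% downward. Of the members 4.68% passed, which is near that background, so the number of calls is not in itself a result about these families. At an unadjusted p under 0.05 limma gave 20 higher and 23 lower members, against 2099 and 1974 of all 18193 genes. With centring of each deposited array on a common median in place of quantile normalisation, 3 members rose and 9 fell, and over all genes 254 rose and 673 fell, against 352 and 475.

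The calls were fragile, although each of the 11 genes kept the sign of its difference in all 15 other settings of the analysis. Each of the 11 genes lost its call in at least 3 of the 6 analyses that left out 1 array. Fewer of all genes passed in each of those 6 analyses too, with the ranges given at the end. Whether members lost their calls more often than other genes was not tested. Ube2j1 was the least affected, losing its call in 3 of them (limma adjusted p up to 0.0765). Trim35, Trim28 and Rnf24 lost theirs whichever array was left out (up to 0.143). Without transgenic replicate 3, where skin and muscle markers were high, 3 members rose and 2 fell, and all 5 were among the 11. Leaving out transgenic replicate 1 gave 0 risers and 2 fallers. Leaving out wild-type replicate 1 gave 1 riser and 5 fallers, and leaving out wild-type replicate 2 gave 1 riser and 0 fallers. No member passed when transgenic replicate 2 or wild-type replicate 3 was left out. At an unadjusted p under 0.05 limma gave 10 higher and 17 lower members in the first of these analyses, and 15 and 17 in the other. It gave 17 higher members without transgenic replicate 1 and 17 lower members without wild-type replicate 2.

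Promoter sequences of the strongest calls are shown because the measured quantity is transcript level, and because the forkhead gene Foxe3 had the largest rise among all genes. They are the 2 falls and 2 rises with the largest change that had an entry in the RefSeq table (GRCm38.p6). Each runs 5′ to 3′ on the gene's strand over 300 bases, 250 before and 50 after the annotated start, and Ube2h has 2 annotated starts. Ube2o and Trim35 were not matched. Capitals mark the forkhead core TGTTTAC, searched on both strands, so that a match on the opposite strand reads GTAAACA.
Rnf113a1, chrX:37190972-37191271, plus strand: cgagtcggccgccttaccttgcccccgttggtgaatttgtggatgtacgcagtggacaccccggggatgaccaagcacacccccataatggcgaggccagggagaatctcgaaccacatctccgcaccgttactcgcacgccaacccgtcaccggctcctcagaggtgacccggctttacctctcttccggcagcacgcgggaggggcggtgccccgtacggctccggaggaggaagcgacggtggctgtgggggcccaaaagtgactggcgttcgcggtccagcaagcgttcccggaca
Rnf123, chr9:108079252-108079551, minus strand: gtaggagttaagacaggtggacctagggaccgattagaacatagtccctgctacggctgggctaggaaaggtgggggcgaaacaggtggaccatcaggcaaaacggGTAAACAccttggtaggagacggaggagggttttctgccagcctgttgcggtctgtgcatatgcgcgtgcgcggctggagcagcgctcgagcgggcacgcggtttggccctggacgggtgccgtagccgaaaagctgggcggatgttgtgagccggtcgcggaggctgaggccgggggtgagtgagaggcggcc
Fbxo41, chr6:85502945-85503244, minus strand: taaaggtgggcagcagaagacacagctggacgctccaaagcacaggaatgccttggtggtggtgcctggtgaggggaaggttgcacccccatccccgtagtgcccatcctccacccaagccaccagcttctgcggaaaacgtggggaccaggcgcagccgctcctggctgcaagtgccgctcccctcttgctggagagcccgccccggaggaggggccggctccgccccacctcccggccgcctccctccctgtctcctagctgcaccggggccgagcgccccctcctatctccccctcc
Ube2h, chr6:30304490-30304789, minus strand: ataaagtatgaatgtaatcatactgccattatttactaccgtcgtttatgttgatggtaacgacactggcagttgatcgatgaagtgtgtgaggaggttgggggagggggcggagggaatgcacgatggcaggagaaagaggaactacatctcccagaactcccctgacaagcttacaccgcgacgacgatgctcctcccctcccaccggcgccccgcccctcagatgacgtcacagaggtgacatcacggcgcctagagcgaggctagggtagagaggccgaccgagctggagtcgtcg
Ube2h, chr6:30243754-30244053, minus strand: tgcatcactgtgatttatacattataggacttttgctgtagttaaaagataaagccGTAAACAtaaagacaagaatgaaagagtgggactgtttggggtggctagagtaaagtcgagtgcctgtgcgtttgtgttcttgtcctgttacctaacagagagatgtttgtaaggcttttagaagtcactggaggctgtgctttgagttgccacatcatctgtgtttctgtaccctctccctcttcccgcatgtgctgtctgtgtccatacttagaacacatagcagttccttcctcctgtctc

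The forkhead core was present in the promoter of Rnf123, with its first base 144 bases before the start, and in the second promoter of Ube2h, 194 bases before the start, both on the opposite strand. It was in 2 of the 10 promoters of called members, in 7 of 243 promoters of all members with an entry (2.88%, from 184 genes) and in 1199 of 32851 promoters in the table (3.65%). The heat shock motifs GAANNTTC and TTCNNGAA, searched on both strands as motifs of protein stress genes, were in 7.86% and 8.52% of all promoters. The first was in 0 of the 10 promoters of called members and the second in 1, that of Trim23. A match describes these letters only, and no binding was measured.

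Among the conjugating enzymes, Ube2o had the largest change. It encodes an unusually large enzyme that acts as both conjugating enzyme and ligase, and in mouse reticulocytes it clears proteins during terminal red cell maturation. Its log2 values were 8.36, 7.98 and 8.05 in transgenic lenses, against 8.74, 9.20 and 9.47 in wild-type lenses. The groups did not overlap, and the lowest wild-type value was that of replicate 1. Ube2o fell by 1.00 ± 0.19 (SE; limma adjusted p = 0.0299), a 2.01-fold difference, with a 95% interval of -1.44 to -0.57.

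Ube2j1 encodes a conjugating enzyme anchored in the membrane of the endoplasmic reticulum, where it serves the degradation of misfolded proteins. It stood at 8.15, 8.05 and 8.10 in transgenic lenses, against 8.54, 8.67 and 8.68 in wild-type lenses. All 3 transgenic values lay close together and below every wild-type value. The fall was 0.53 ± 0.08 (SE; limma adjusted p = 0.0157), the smallest adjusted p among the members. A second probe set of Ube2j1 of similar brightness differed by -0.013 (SE 0.083), so the fall was seen by 1 of 2 probe sets.

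Ube2h encodes the conjugating enzyme that works with the CTLH ligase complex. It was measured at 9.49, 9.34 and 9.33 in transgenic lenses, against 8.81, 8.86 and 8.95 in wild-type lenses. The rise of 0.51 ± 0.09 (SE; limma adjusted p = 0.0217) came from a probe set whose suffix marks probes that can match other transcripts. The 3 other probe sets of Ube2h differed by 0.24, 0.22 and 0.14, the same direction and smaller. Fitted as separate probe sets, none of those 3 passed.

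Of 27 measured enzymes that conjugate ubiquitin, Ube2h rose, Ube2o and Ube2j1 fell and 24 did not pass, with a median log2 difference of 0.00017 (0.011 over all genes). Ube2n, which builds the lysine-63-linked chains of DNA damage and immune signalling, stood at 9.57, 9.69 and 9.74 in transgenic lenses, against 9.92, 9.97 and 9.95 in wild-type lenses. Its groups did not overlap, but the difference of -0.28 did not pass (limma adjusted p = 0.104). It passed after centring on a common median (-0.38, 0.0455). Ube2g2, an enzyme of endoplasmic reticulum quality control, differed by 0.30 without passing (limma adjusted p = 0.0917). Ube2c, which loads the anaphase-promoting complex, differed by -0.22 (0.519). The enzymes of ubiquitin-like modifiers measured here were Ube2f, of the Nedd8 pathway, at a difference of 0.013, and Ube2l6, of the Isg15 pathway, at 0.020. The catalytically inactive variants Ube2v1 and Ube2v2 differed by 0.081 and 0.15.

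**Figure D1:**
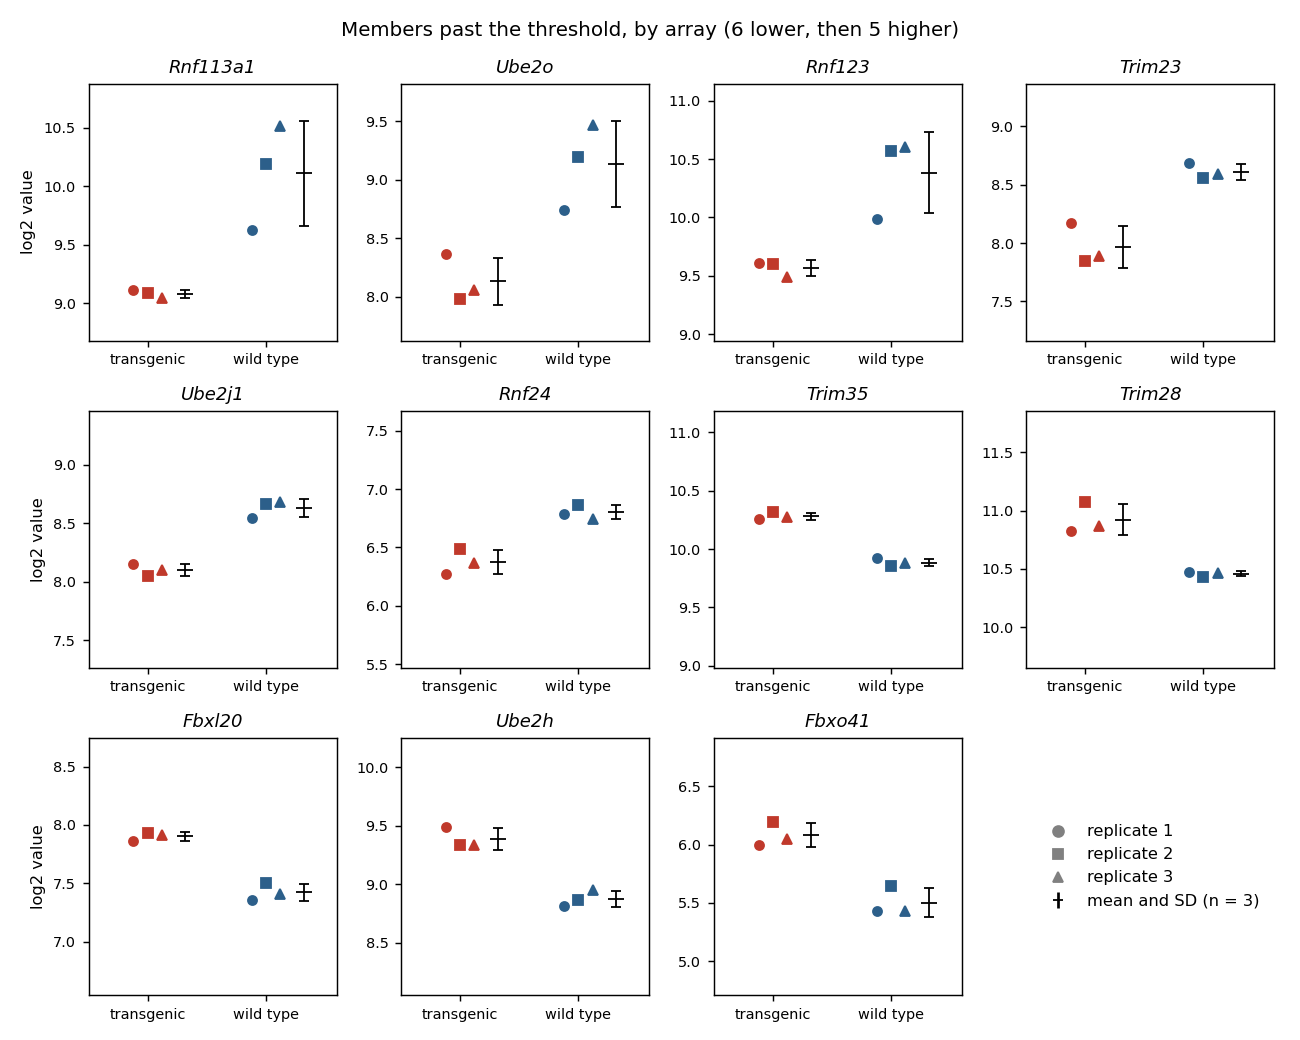
Log2 values of the 11 members past the threshold on each array, transgenic at the left (red) and wild type at the right (blue) of each panel, with the mean and SD of 3 arrays as a black bar and the same span of log2 units in every panel. No panel shows an overlap of the groups, which is no added support because the genes were picked by the test on these values. Wild-type replicate 1 (circle) is the lowest wild-type value for Rnf113a1, Ube2o and Rnf123.

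Rnf113a1 and Rnf123 were the RING finger genes with the largest falls. Rnf113a1, on chromosome X, encodes a RING protein of the spliceosome. Its values were 9.11, 9.08 and 9.04 in transgenic lenses, against 9.62, 10.19 and 10.52 in wild-type lenses. The transgenic arrays were tight (SD 0.036) and the wild-type arrays were spread (SD 0.45). The fall was 1.03 ± 0.20 (SE; limma adjusted p = 0.0331), a 2.04-fold difference. Rnf113a2, a related gene on chromosome 12, stood at 6.27, 6.12 and 6.35 in transgenic lenses, against 6.57, 6.50 and 6.63 in wild-type lenses. That difference of -0.32 did not pass (limma adjusted p = 0.0950), and whether the pair share signal on the array was not tested.

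Rnf123 encodes the catalytic subunit of the ligase complex that targets the cell cycle inhibitor p27. It was measured at 9.61, 9.60 and 9.49 in transgenic lenses, against 9.99, 10.57 and 10.60 in wild-type lenses. Every transgenic value lay below every wild-type value, and wild-type replicate 1 was again the lowest of its group. Rnf123 fell by 0.81 ± 0.16 (SE; limma adjusted p = 0.0358), a 1.76-fold difference. Rnf113a1, Ube2o and Rnf123 each have 1 probe set, so no second measurement bears on these 3 falls. Of the 6 fallers, 4 had their lowest wild-type value in replicate 1. That array also had the highest mean of the neural retina markers, 8.09, and the highest upper quartile as deposited, 7.21 against 7.09 to 7.12 on the other arrays. Without wild-type replicate 1 the differences were -1.27 for Rnf113a1, -1.20 for Ube2o and -1.01 for Rnf123. Leaving out the lowest wild-type value must enlarge a fall, so these values cannot show what that array contributed.

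Rnf24 encodes a membrane RING protein that binds TRPC channels. It stood at 6.28, 6.49 and 6.37 in transgenic lenses, against 6.79, 6.86 and 6.75 in wild-type lenses. The groups did not overlap and the fall was 0.42 ± 0.09 (SE; limma adjusted p = 0.0409). A second probe set, under the median of all values, differed by 0.084. Rnf103, a ligase gene of the endoplasmic reticulum, differed by 0.39 with overlapping groups and did not pass (limma adjusted p = 0.163). Rnf2, the catalytic subunit of Polycomb complex 1, differed by 0.071, a sign that turned on the values as deposited (-0.0012) and after centring on a common median (-0.038). Its other, dimmer probe sets differed by 0.41, 0.38, 0.092 and -0.26, and none passed among all single-symbol probe sets.

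Of the 77 Rnf genes, 0 rose and 3 fell in limma, with a median difference of -0.0022. At an unadjusted p under 0.05, 3 were higher and 6 lower, against 2099 and 1974 of all 18193 genes. Rnf180, the ligase gene outside the rule, fell far more than any member. It stood at 8.31, 8.22 and 7.87 in transgenic lenses, against 10.96, 10.95 and 10.94 in wild-type lenses (difference -2.82; limma adjusted p = 5.26e-05).

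Tripartite motif genes went both ways. Trim23, whose product joins a RING ligase to an ADP-ribosylation factor domain, stood at 8.17, 7.84 and 7.89 in transgenic lenses, against 8.69, 8.55 and 8.59 in wild-type lenses. The groups did not overlap and the fall was 0.64 ± 0.11 (SE; limma adjusted p = 0.0207). Of 2 dimmer probe sets of Trim23, the brighter differed by 0.067 and the other by -0.13.

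Trim28 encodes the corepressor that zinc finger proteins recruit to silence chromatin. Its values were 10.83, 11.07 and 10.86 in transgenic lenses, against 10.48, 10.44 and 10.47 in wild-type lenses. The rise of 0.46 ± 0.09 (SE; limma adjusted p = 0.0359) came from a probe set with probes that can match other transcripts. The second probe set of Trim28, almost as bright, differed by -0.11, so the direction rests on which probe set is read. Trim35 was measured at 10.26, 10.31 and 10.27 in transgenic lenses, against 9.92, 9.85 and 9.88 in wild-type lenses. Its rise of 0.40 ± 0.08 (SE; limma adjusted p = 0.0316) was lost on the values as deposited, and 2 dimmer probe sets differed by 0.11 and -0.24.

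**Figure D2:**
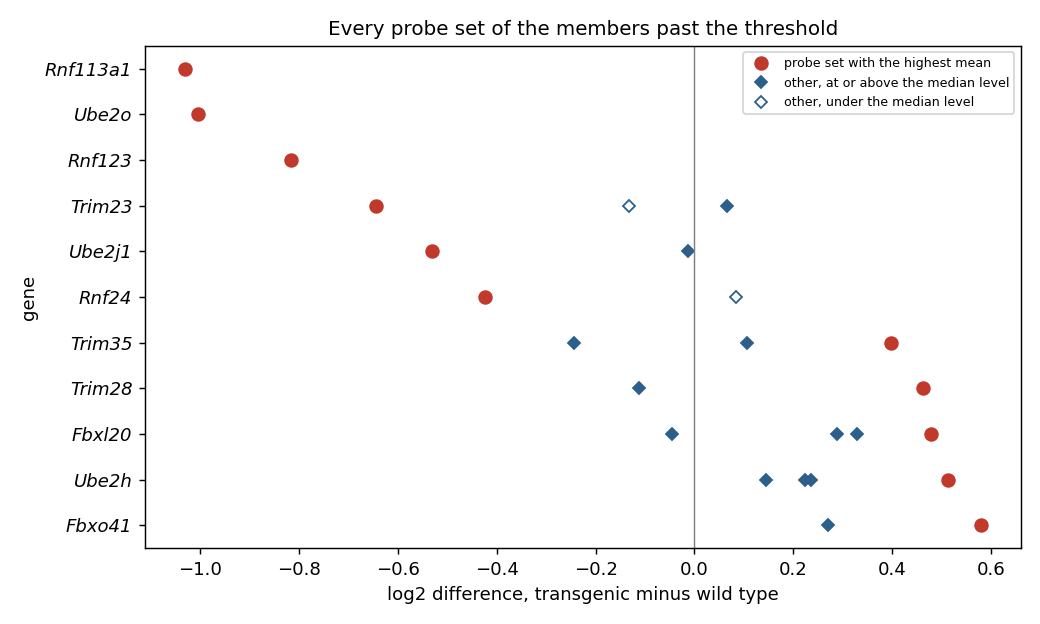
Log2 difference, transgenic minus wild type (x axis), of every probe set of the 11 members past the threshold (1 gene per line). Red circles are the probe sets with the highest mean, which represent the gene; blue diamonds are its other probe sets, open where both group means lie under the median of all values. No diamond reaches the size of its gene's circle, through which the gene was called, and Rnf113a1, Ube2o and Rnf123 have no other probe set.

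Over the 8 called members with a further probe set, 9 of 14 further probe sets had the same direction as the chosen one and 0 had a larger difference. The same comparison over all 128 members with further probe sets gave 125 of 237 in the same direction and 123 with a larger difference. The called genes were picked through a large difference of the chosen probe set, so smaller differences in their further probe sets cannot be read as a result. Differences also lay in probe sets that did not represent their gene. Trim26, encoding a tripartite motif ligase, differed by -0.36 without passing (limma adjusted p = 0.0977), while its second probe set stood at 6.68, 6.81 and 6.61 in transgenic lenses, against 7.12, 7.55 and 7.48 in wild-type lenses. Tested among all single-symbol probe sets, that second probe set fell by 0.68 (limma adjusted p = 0.0265). Its groups did not overlap, and both probe sets of Trim26 had differences below 0. The gene also passed on the values as deposited (limma adjusted p = 0.0468), with the mean of its probe sets (0.0461) and after centring (0.0307).

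Trim37, chosen after its values were seen, encodes a ligase that acts at centrosomes and peroxisomes. A probe set of it stood at 8.03, 7.87 and 7.95 in transgenic lenses, against 8.58, 8.58 and 8.67 in wild-type lenses. Among all single-symbol probe sets it fell by 0.67 ± 0.09 (SE; limma adjusted p = 0.0065), the smallest adjusted p of any probe set of the members. The other 4 probe sets of Trim37 differed by -0.30, -0.39, -0.20 and -0.05, all below 0, and none of these passed. With each single-symbol probe set as its own test, 7 members rose and 9 fell by at least 1 probe set. A gene with several probe sets has several tests here, so these counts cannot be set against the 11 calls. More of all genes fell in this setting too, so the larger number is not in itself a result about the members. The 5 probe sets that passed beside those of the 11 genes belonged to Trim26, Trim37, Trim44 (-0.64), Fbxo3 (0.43) and Rnf41 (0.40). For Trim44, Fbxo3 and Rnf41, each named after its values were seen, other probe sets had differences of both signs.

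Trim27, encoding a ligase of endosomal sorting, differed by 0.29 with groups that did not overlap (limma adjusted p = 0.0801). The suffix of that probe set marks probes that can match other transcripts. Its other probe sets differed by 0.29, 0.080, 0.051, -0.057 and -0.097. Of the 58 Trim genes 2 rose, 1 fell and 55 did not pass. In 39.7% of them both group means lay under the median of all values, 5.34, against 31.6% of all genes. None of 18 measured members linked to interferon passed (limma; 0 higher and 1 lower at an unadjusted p under 0.05), and 11 of these lay under that median. Trim25, a ligase gene of viral RNA sensing, differed by 0.21, with its highest value, 7.10, on transgenic replicate 3 and a difference of -0.086 without that array, and the Fc receptor gene Trim21 by 0.036.

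The largest difference of all members was that of Trim29, 1.16, and it did not pass (SE 0.66; limma adjusted p = 0.346). Trim29, an epithelial gene without a RING domain, chosen here after its values were seen, stood at 5.66, 5.60 and 8.37 in transgenic lenses, against 5.24, 5.44 and 5.49 in wild-type lenses. Transgenic replicate 3 exceeded the other 5 arrays by 2.71, the widest such gap of any member. On the same array the mean of 17 skin markers was 9.65, against 5.82 and 5.61 on the other transgenic arrays and 5.60 to 6.12 on the wild-type arrays. The mean of 18 skeletal muscle markers was 7.84 on it, against 5.45 and 5.31 on the other transgenic arrays and 5.40 to 5.69 on the wild-type arrays. Without transgenic replicate 3 the difference of Trim29 was 0.24. The part of skin and muscle transcripts in its value was not tested.

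The ligase genes of muscle wasting did not follow the muscle markers. Trim63, which encodes MuRF1, was under the median of all values at 3.72, 3.84 and 3.98 in transgenic lenses, against 3.95, 4.20 and 4.09 in wild-type lenses. Fbxo32, which encodes atrogin-1, stood at 5.60, 5.71 and 5.50 in transgenic lenses, against 5.88, 5.43 and 5.15 in wild-type lenses. Transgenic replicate 3 was not the highest of the 6 arrays for either gene or for Trim54, at 5.66. Of 5 measured muscle-linked members none passed (limma; 0 higher and 1 lower at an unadjusted p under 0.05), and their median difference was -0.24. The sign of the small Fbxo32 difference, 0.12, turned with the mean of its probe sets (-0.021) and without wild-type replicate 3 (-0.048).

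**Figure D3:**
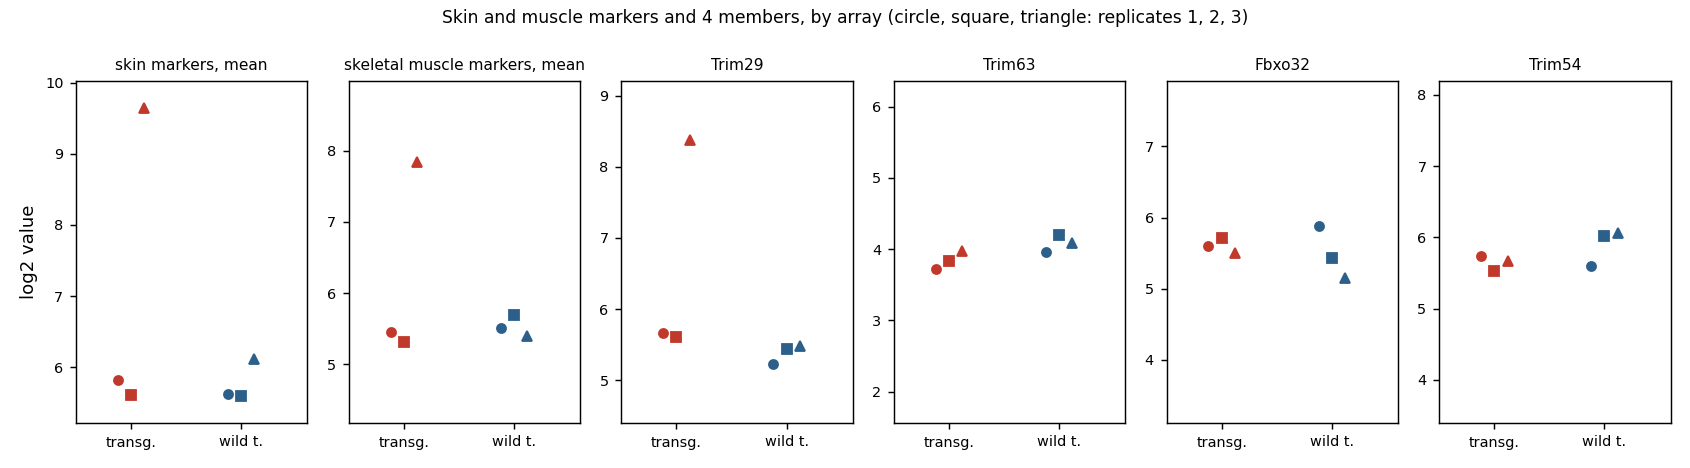
Log2 values per array (transgenic in red at the left, wild type in blue at the right) of the mean of the skin markers, the mean of the skeletal muscle markers, and the members Trim29, Trim63, Fbxo32 and Trim54, with the same span of log2 units in every panel. Transgenic replicate 3 (red triangle) lies above all other arrays for both marker sets and for Trim29, and among the other arrays for Fbxo32, Trim54 and Trim63.

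Among the F-box genes 2 rose and none fell. Fbxo41, a neuronal F-box gene in mouse brain, stood at 5.99, 6.20 and 6.05 in transgenic lenses, against 5.43, 5.64 and 5.43 in wild-type lenses. The groups did not overlap, and the rise was 0.58 ± 0.10 (SE; limma adjusted p = 0.0222). A second probe set differed by 0.27. Of 16 members on the neuron-linked list Fbxo41 alone passed, with a list median of 0.040. Fbxl20, described next, was not on that list.

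Fbxl20, whose product targets a vesicle release protein of synapses, was measured at 7.86, 7.93 and 7.91 in transgenic lenses, against 7.36, 7.50 and 7.41 in wild-type lenses. All transgenic values lay above all wild-type values, and Fbxl20 rose by 0.48 ± 0.08 (SE; limma adjusted p = 0.0214). Of its 3 other probe sets 2 differed by 0.33 and 0.29 and the dimmest by -0.045.

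Of the 32 Fbxo, 17 Fbxl and 18 Fbxw genes, 65 did not pass. Fbxo30, a muscle-linked F-box gene, and Fbxo25 differed by -0.34 and -0.26, both with groups that did not overlap (limma adjusted p = 0.0785 and 0.134). Fbxl12 differed by -0.39 and Fbxl5, whose product senses iron, by 0.31 (0.113 and 0.192). Fbxw4 and Fbxw5 differed by 0.25 and 0.24 (0.139 and 0.141), with transgenic values above all wild-type values in both. Fbxw7, the receptor for cyclin E, Myc and Notch, stood at 7.69, 8.07 and 8.004 in transgenic lenses, against 8.17, 8.19 and 7.95 in wild-type lenses. Its groups overlapped and its difference of -0.18 had a 95% interval of -0.48 to 0.11. A second, dimmer probe set of Fbxw7 differed by -0.32, with groups that did not overlap. Tested among all single-symbol probe sets, it did not pass (limma adjusted p = 0.1999).

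**Figure D4:**
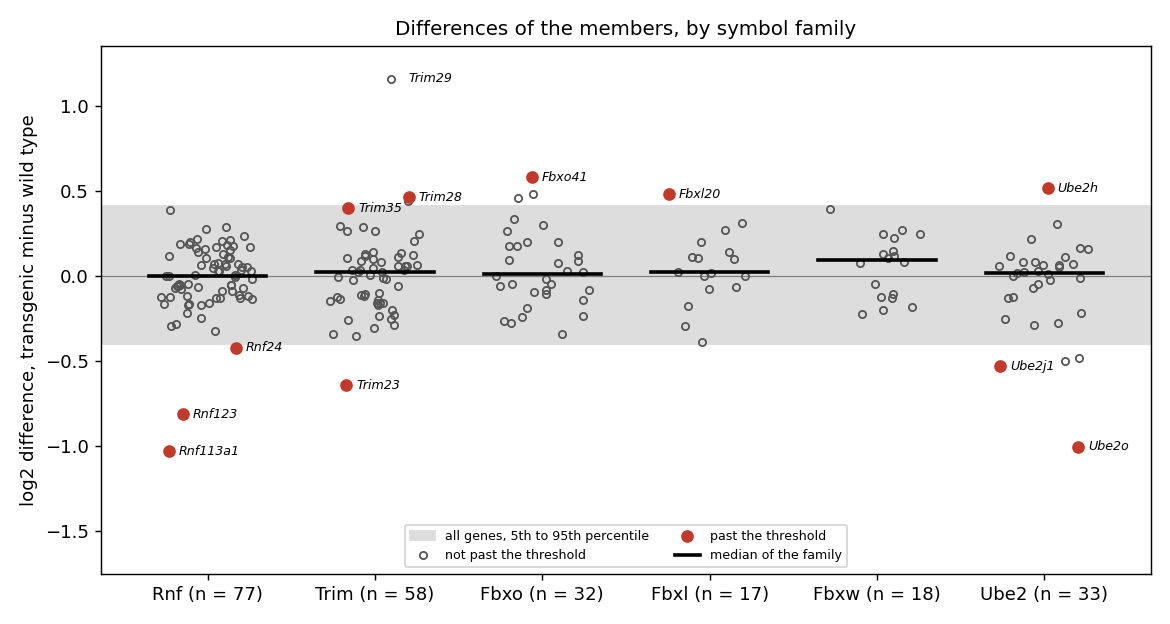
Log2 difference, transgenic minus wild type, of each of the 235 members, grouped by symbol family (x axis, with the number of genes). Filled red circles passed the threshold, black lines are family medians and the grey band holds the 5th to 95th percentile of all genes, -0.40 to 0.41. Family medians lie between -0.0022 (Rnf) and 0.093 (Fbxw), and Trim29 is the highest member without passing.

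Over all 235 members the median log2 difference was 0.020, and over all genes 0.011. The 5th and 95th percentiles of the members' differences were -0.33 and 0.32, against -0.40 and 0.41 for all genes. Groups did not overlap for 59 members (25.1%), 29 upward and 30 downward, against 28.8% of all genes. The members' median turned below 0 after centring on a common median (-0.032, with all genes at -0.035) and with the mean of each gene's probe sets (-0.0049). For 222 of the 224 members without a call, the unadjusted 95% interval of the difference lay within 1 log2 unit either side of 0, so a change past 2-fold was outside it. The exceptions were Fbxo11 and Trim29. For 176 of the 224 it lay within 0.5. In all, 22.6% of members lay under the median of all values, where background can narrow a difference.

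Members were also grouped by function. Of 8 members that act in mitosis or with the anaphase-promoting complex, none passed (limma; 0 higher and 1 lower at an unadjusted p under 0.05). Differences were below 0 for 7 of 8, with a median of -0.18, while 52.3% of all genes had a difference above 0. The list was chosen with earlier results of these data known. Fbxo5, the inhibitor of the anaphase-promoting complex, differed by -0.24 and Ube2s, which extends chains on substrates of that complex, by -0.26. Of 14 members of endoplasmic reticulum quality control, Ube2j1 fell and 13 did not pass, with a median of -0.10. Of 16 members of DNA damage and chromatin ubiquitination, Trim28 rose and 15 did not pass, with a median of 0.067. None of 9 members of Wnt and TGF-beta signalling passed (limma; 1 higher and 2 lower at an unadjusted p under 0.05), nor any of 5 that regulate the clock, iron or lipids (1 and 0). Transgenic replicate 1 had the lowest value of Ube2c, Ube2s and Fbxo5, 8.16, 10.53 and 7.29, and the lowest neural retina marker mean, 7.18. Transgenic replicate 3, with the next lowest retina mean, 7.45, had 8.84, 10.77 and 7.77 for these genes. Wild-type lenses had 8.51 to 8.89, 10.92 to 11.01 and 7.65 to 7.99. The part of retina RNA in these differences was not tested.

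In the rest of the ubiquitin system, Cul1, Uhrf2 and Socs2 fell, each with a smaller adjusted p than any member. Cul1, the scaffold on which F-box proteins are assembled, stood at 9.26, 9.30 and 9.20 in transgenic lenses, against 9.90, 10.04 and 10.03 in wild-type lenses. The groups were far apart for their spread, and Cul1 fell by 0.74 ± 0.08 (SE; limma adjusted p = 0.00386), a 1.67-fold difference. It kept its call in all 15 other settings, each array left out among them. Of 16 cullins and scaffold subunits Cul1 alone passed, and the list median was 0.066. Cul3, which serves another class of substrate receptors, differed by -0.32 (0.130), and Skp1, which links F-box proteins to Cul1, by 0.012 (0.950).

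Uhrf2, encoding a RING ligase that reads modified DNA and histones, stood at 9.03, 9.15 and 8.84 in transgenic lenses, against 9.92, 10.16 and 10.18 in wild-type lenses. It fell by 1.08 ± 0.12 (SE; limma adjusted p = 0.00307) and kept its call whichever array was left out. Among 63 measured RING ligases with other symbols, the signalling ligase gene Traf6 also fell, by 0.57, and Mkrn2 rose by 0.45, while 60 did not pass. Both calls were lost in 4 of the 6 analyses that left out 1 array. Of 23 HECT ligases, the channel regulator Nedd4l fell by 0.62 and the imprinted gene Ube3a rose by 0.39 (limma adjusted p = 0.0495 and 0.0386). Ube3a lost its call with any 1 array left out, and Nedd4l with any but wild-type replicate 1.

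Among 41 substrate receptors outside the Fbx symbols, Socs2, the receptor that limits growth hormone signalling, fell by 0.74 ± 0.09 (SE; limma adjusted p = 0.00587) and Rhobtb2 rose by 0.55 (0.0418). Socs2 kept its call whichever array was left out but not with the mean of its probe sets (0.142), and of these 6 analyses Rhobtb2 kept its call only in the one without transgenic replicate 3. Of 67 deubiquitinases, which remove ubiquitin again, Usp48 rose by 0.37 and Usp45 fell by 0.51 (0.0488 and 0.0493), and both lost their calls with any 1 array left out. None of 7 activating enzymes passed (limma; 2 higher and 0 lower at an unadjusted p under 0.05), and none of 6 genes of ubiquitin-like modifiers did (0 and 0).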

How the data were processed

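The authors deposited 1 log2 value per probe set (a group of probes for 1 transcript) and array, and the log2 scale was read from the range of 2.68 to 14.8. RNA was extracted from lenses and, per the labels' protocols, labelled through in vitro transcription; how probes were summarised and normalised is not given in the sources used here. The 64 control probe sets were set aside, which left 45037. Upper quartiles differed by 0.120 between arrays, over the limit of 0.1, so arrays were quantile normalised with limma 3.58.1 (R 4.3.3). Symbols came from GEO's platform annotation, updated through RefSeq by gene identifier (99.4% matched): 34945 probe sets had 1 symbol, 932 several and 9160 none. Each gene was represented by its probe set of highest mean across the 6 arrays.

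Genotypes were compared with lmFit and eBayes, on 18193 genes (prior degrees of freedom 3.80). The fit was tested on simulated data with known changes. Members, lists and alternatives were chosen with earlier results of these data known. Named genes are the calls, the next 2 by p of each family, a few well-studied members and up to 3 calls of each list outside the members, and any further gene named as an example was chosen after its values were seen. No 2 arrays were identical. No list was tested as a set.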

Additional observations from a re-analysis of the deposited data

How the results depend on the processing

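In the main analysis 5 members rose and 6 fell. The count of risers was 3 after centring on a common median, 1 with the mean of each gene's probe sets, 1 without moderation of variances and 0 with the replicate block. The labels do not say whether replicate numbers pair the samples. Deviations of same-numbered arrays correlated at -0.0523, 0.0842 and 0.0277, and those of other pairs of arrays at -0.119 to 0.0747. With so few arrays these values cannot show whether samples were paired. The count of fallers was 0 without moderation and 0 with the replicate block. At an unadjusted p under 0.05 limma gave 17 higher and 19 lower members with the block, and the ordinary linear model 16 and 20 without moderation. With 1 array left out the risers ran from 0 to 3 and the fallers from 0 to 5. On the values as deposited, with dim probe sets left out, with trended robust variances and with array weights, 4 to 6 members rose and 6 or 7 fell.

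Over all genes, 352 higher and 475 lower became 45 and 79 without moderation, 599 and 790 with array weights and 69 and 154 with the replicate block. With probe sets as separate tests, 735 genes were lower. With 1 array left out the counts ran from 70 to 249 and from 156 to 385. The members' median of 0.020 was 0.0042 on the values as deposited, -0.032 after centring, -0.0049 with the mean of probe sets and -0.0068 over every probe set. Of the named genes, Fbxo32 (-0.021 with the mean of probe sets, -0.048 without wild-type replicate 3; 0.3169 at most with 1 array left out) and Rnf2 (-0.0012 as deposited, -0.038 after centring) changed sign, and neither passed in any of these. The causes were not tested. For 176 of the 224 members without a call the 95% interval lay within 0.5 of 0 on the log2 scale, and of the 53 dim members none was called (limma; 1 higher and 2 lower at an unadjusted p under 0.05).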
